A study of Mus musculus with 8 samples.

Results

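The genes described here encode proteins of the myelin sheath (9 of the 31053 genes in the count tables). All 9 were kept, whatever their values, and were followed through mature oligodendrocytes, their precursors and the cell types that do not make myelin. The members were Mbp, Mobp, Mag, Cnp, Mog, Cldn11, Opalin, Mal and Ermn. The cells came from the dentate gyrus (DG) of 8-week-old Nestin-GFP mice, in which regulatory elements of the nestin gene drive GFP. On day 15 after a sham craniotomy (Control) or a unilateral controlled cortical impact (TBI), the DG was dissected, dead cells were removed, GFP+ cells were sorted, and 3′ single-cell libraries were made with molecular identifiers (UMIs). The labels list 4 Control and 4 TBI samples, whereas the study's methods give a larger number of animals for each condition. Which animals entered each pool is not known here. Material from all mice of 1 condition entered a single sort and no cell could be traced to an animal, so each condition was 1 library. No test between conditions was therefore possible, and all intervals below are 95% exact intervals that cover counting error only, not the spread between animals.

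After filtering, 3049 Control cells (24629521 UMIs, median 6928 per cell) and 5036 TBI cells (31503415 UMIs, median 5663) remained, and 3 barcodes occurred in both libraries. Cells were grouped with the 9 genes left out of both the clustering and the naming of clusters, so that no class was defined by a gene described here. The class names were rebuilt in this way and can differ from those of the study. Oligodendrocytes numbered 571 in Control and 1114 in TBI (median 10175 and 8307 UMIs), and oligodendrocyte precursors 28 and 56. Levels are given as CPM, the UMIs of a gene summed over the cells of a class per 1000000 UMIs of all genes except Malat1. Of the markers used to name the classes, Ugt8a, which encodes an enzyme of myelin lipid synthesis, stood at 1122 CPM in oligodendrocytes and 8.89 in all other cells. The precursors held 886 CPM of Pdgfra and 1438 of Gpr17, the receptors that mark their early and late stages. Because these genes took part in the naming, their levels describe the classes and are not an independent check. Of the 7 types that do not make myelin, there were 472 proliferating neural stem or progenitor cells (NSC), 335 radial glia-like (RG-like) cells, 1840 neuron-like, 1354 astrocyte-like, 833 endothelial, 988 mural and 127 microglial cells. 

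Myelin is a spiral of oligodendrocyte membrane wrapped around an axon, and it insulates the axon and speeds conduction. In its compact part the cytoplasmic faces of the membrane are pulled together by myelin basic protein (Mbp), whose RNA is carried into the processes and translated there, and Mobp is a second small basic protein of the same layer. Cnp, an enzyme that keeps cytoplasmic channels open, and the adhesion protein Mag, which faces the axon, belong to non-compact myelin. Mog lies on the outermost surface, Cldn11 forms the tight junctions between the wraps, Mal sorts proteins into lipid-rich membrane, Opalin is a transmembrane protein of the oligodendrocyte, and Ermn is a cytoskeletal protein of late stages. Precursors divide, leave the cycle as Gpr17+ committed cells, and then switch on these genes as they mature.

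Promoter windows of Mobp, Cnp and Mal are given next. The windows below run from 250 to 51 bases before the start given by RefSeq (GRCm38.p6), 5′ to 3′ on the gene's strand. Capitals mark the core letters bound by SOX factors such as Sox10, a central regulator of the lineage (ACAAAG on either strand, thus also CTTTGT). They are shown because Cnp and Mobp stood far apart in precursors, as given below, and because Mal was found at a high level in endothelial cells.
Mobp: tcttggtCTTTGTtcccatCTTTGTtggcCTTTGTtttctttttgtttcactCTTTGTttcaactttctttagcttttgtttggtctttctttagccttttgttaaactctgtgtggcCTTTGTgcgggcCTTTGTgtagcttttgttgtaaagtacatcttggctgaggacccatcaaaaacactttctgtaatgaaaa
Cnp: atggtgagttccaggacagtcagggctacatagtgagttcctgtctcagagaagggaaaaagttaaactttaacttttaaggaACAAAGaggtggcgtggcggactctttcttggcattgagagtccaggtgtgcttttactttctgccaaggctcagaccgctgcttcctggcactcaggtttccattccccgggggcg
Mal: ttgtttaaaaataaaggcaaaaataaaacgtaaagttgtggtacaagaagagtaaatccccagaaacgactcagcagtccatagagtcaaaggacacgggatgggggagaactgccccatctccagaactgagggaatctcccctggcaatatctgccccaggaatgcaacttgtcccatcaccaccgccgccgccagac
The Mobp window (chr9:120149492-120149691, plus strand) held 6 SOX cores, the Cnp window (chr11:100574689-100574888, plus strand) held 1, and the Mal window (chr2:127656746-127656945, minus strand) held none. Of 27025 windows of the same length, 3663 (13.6%) held at least 1 such core and only that of Mobp held 6. RefSeq windows existed for 8 of the 9 genes, all but Mbp, and the core was also found for Mag and Opalin, which makes 4 of 8, but not for Mog, Cldn11 or Ermn. The letters CTGGCAC, a core recognised by the myelin factor Myrf (on either strand, no overlap with the SOX core), were found for Mag and Cnp and in 3.32% of all windows. These are matches of letters and were not tested for binding.

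In the deposited annotation's build (GRCm38, GENCODE gene models), Mag lies on chromosome 7 (30899176 to 30914873), Mog on chromosome 17 (37010743 to 37023398), Mobp on chromosome 9 (120149707 to 120181484), Cnp on chromosome 11 (100574904 to 100591729), Cldn11 on chromosome 3 (31149920 to 31164324) and Opalin on chromosome 19 (41061710 to 41077113). Mal (127633226 to 127656695) and Ermn (58045113 to 58052864) both lie on chromosome 2, and Mbp lies on chromosome 18. Mobp shares its strand and 3′ end with the uncharacterised transcript Gm38642, so that reads could be split between them. Cnp and Ermn overlap Dnajc7 and Galnt5 on the opposite strand. Because only 3′ ends were counted, the golli transcripts of the Mbp locus, which are made in neurons and other cells and share its last exons, could not be told apart from those of Mbp.

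Nearly all myelin RNA was found in the oligodendrocytes. They held 97.5% of the 468143 UMIs of the 9 genes, with shares from 95.5% for Mbp and 96.0% for Cnp to 98.8% for Opalin and 99.1% for Ermn. The 9 genes together made up 31777 CPM in Control oligodendrocytes and 31217 in TBI oligodendrocytes. Ordered by how much of each gene lay outside the oligodendrocytes, Mbp, Cnp and Mal (97.8%) stood first.

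**Figure D1:**
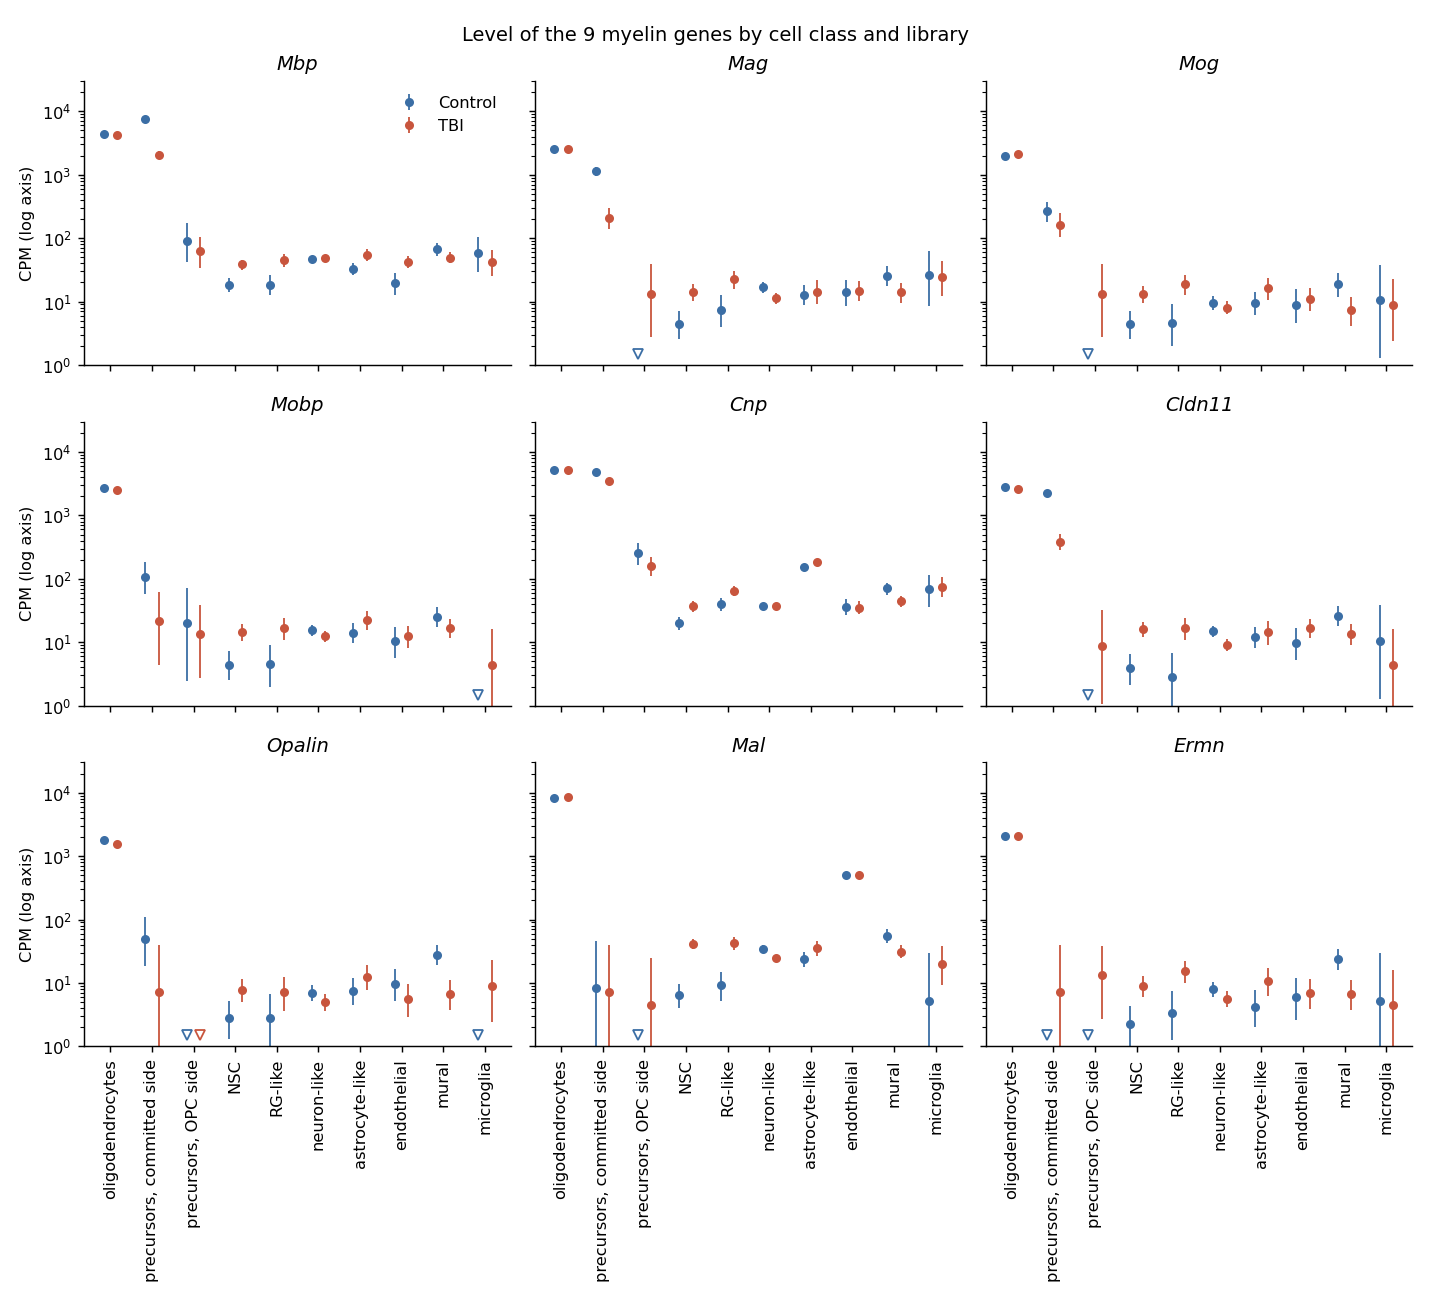
Level of each of the 9 genes (CPM, log axis) in each cell class of the Control and the TBI library, with all cells of a class included. Points are summed levels with exact Poisson intervals (counting error only), and open triangles at the bottom stand for 0 UMIs. All genes were highest in oligodendrocytes or, for Mbp in Control, in committed precursors, and Mal stood apart in endothelial cells.

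In mature oligodendrocytes, the 2 conditions differed little in any of the 9 genes. The basic proteins of compact myelin were both slightly lower in TBI. Mbp stood at 4446 CPM in Control and 4155 in TBI, a ratio of 0.935 (0.920 to 0.95). Mobp stood at 2660 and 2523 CPM, a ratio of 0.948 (0.929 to 0.968). For both, each of 11 other ways of processing also gave a ratio below 1, from 0.928 to 0.962 for Mbp and from 0.931 to 0.973 for Mobp.

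Of the genes of non-compact myelin, Mag was at 2509 CPM in Control and 2554 in TBI (ratio 1.02, 0.997 to 1.04). Cnp was at 5246 and 5120 CPM (ratio 0.976, 0.962 to 0.99), and its direction depended on the processing, with ratios from 0.952 to 1.06. Neither gene was thus separated between the libraries in a way that held throughout.

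The surface and junction genes pointed in opposite directions. Mog was higher in TBI, at 1985 CPM in Control and 2106 in TBI (ratio 1.06, 1.04 to 1.09), and stayed above 1 in all 11 other settings (1.03 to 1.12). Cldn11 was lower, at 2835 and 2634 CPM (ratio 0.929, 0.911 to 0.948), with ratios from 0.890 to 0.995 elsewhere. Opalin lay farthest from 1, at 1768 CPM in Control and 1528 in TBI, a ratio of 0.865 (0.843 to 0.887) that ranged from 0.846 to 0.939 over the other settings. At 2000 UMIs per cell, where it was 0.939, Mog (1.12), Mal (1.11), Mag (1.10) and Ermn (1.09) lay farther from 1.

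For the remaining members, Mal, the most counted of the 9, was at 8284 and 8510 CPM (ratio 1.03, 1.02 to 1.04), and Ermn at 2045 and 2088 (ratio 1.02, 0.997 to 1.05). Mal ranged from 0.993 to 1.11 over the other settings, so that its direction was not fixed either, while Ermn ranged from 1.00 to 1.09. None of the 9 genes (0 of 9) passed a difference of 1.5-fold, against 2.05% of the 8668 genes with 100 or more UMIs in these cells. The middle 90% of those genes had ratios from 0.793 to 1.27 with a median of 0.998, and every member lay inside that range. The summed ratio was 0.982 (0.977 to 0.988) and turned to 1.02 as a mean over cells, 1.05 with every cell thinned to 2000 UMIs, and 1.00 without 3 clusters of doubted quality and all doublets.

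**Figure D2:**
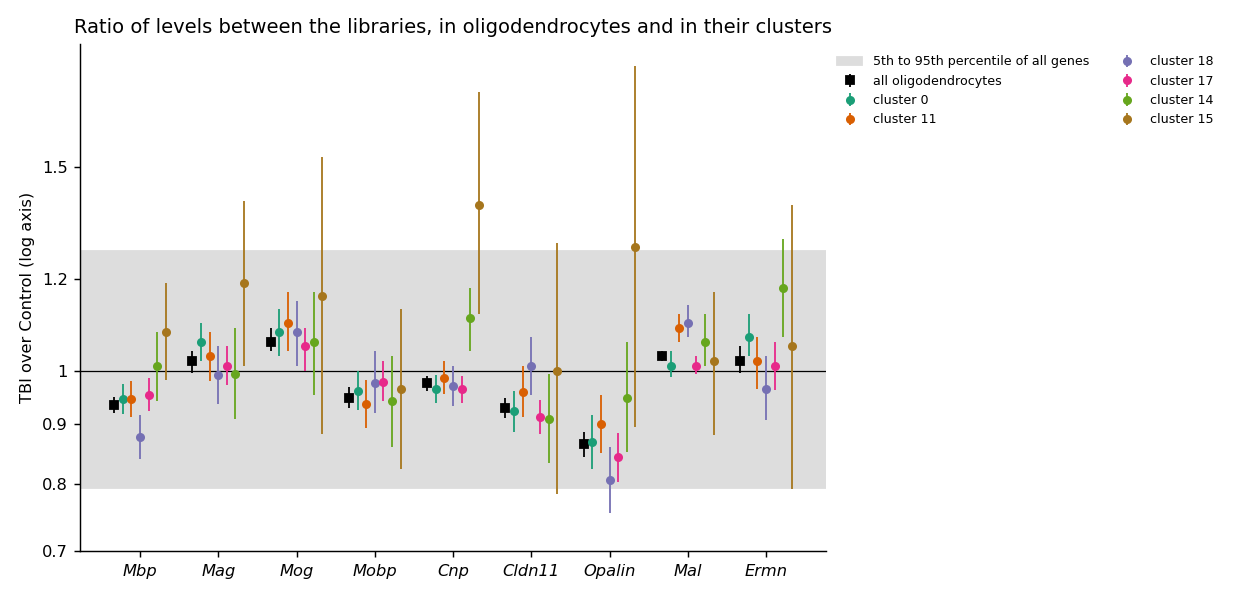
TBI over Control ratio of the level of each of the 9 genes (log axis) in all oligodendrocytes (black squares) and in 6 of their clusters (coloured points), with exact intervals for counting error. In all oligodendrocytes the members lie between 0.865 (Opalin) and 1.06 (Mog), within the grey band from 0.793 to 1.27 that holds the middle 90% of genes with 100 or more UMIs, while cluster 15 has the widest intervals.

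Other genes of myelin, taken as 4 lists, behaved alike in these cells. None of the 12 sheath and membrane genes passed 1.5-fold in either direction (median ratio 1.00), from Cmtm5 at 0.923 to Cd9, a tetraspanin, at 1.18. None of the 8 lipid genes did (median 1.02), from the fatty acid hydroxylase Fa2h at 0.889 to the elongase Elovl1 at 1.11. Nor did any of the 8 transcription factors (median 1.01), from Sox10 at 0.884 to Olig1 at 1.11, or any of the 6 genes for the handling of Mbp RNA (median 0.970), from Hnrnpa2b1 at 0.952 to Hnrnpf at 1.06. Over all genes counted, 2.05% passed this limit, so a count of 0 in lists this short is close to the background.

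Most single oligodendrocytes held the whole set. All 9 genes were detected together in 82.8% of Control and 86.9% of TBI oligodendrocytes, and in 71.1% of 551 and 75.2% of 1026 when every cell was thinned to 2000 UMIs. Mbp was missing from 0 of 571 Control cells and 2 of 1114 TBI cells, whereas Opalin was missing from 64 and 97. The spread between cells was narrowest for Mbp, whose upper quartile was 1.49 times the lower in both libraries, and widest for Opalin, at 2.49 times in Control and 2.32 in TBI. Mal varied 1.87-fold and 1.90-fold between the same quartiles. Opalin was also the least counted member in these cells (23545 UMIs), and the part of counting error in its spread and its missing cells was not separated.

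Within a library, the members did not vary together closely from cell to cell. Over cells with 5000 or more UMIs, without the doubted clusters and doublets, the 36 pairs of members had Pearson correlations with a median of 0.15 in Control (425 cells) and 0.17 in TBI (735 cells). Cldn11 and Mal were the closest pair in both libraries (0.54 and 0.61). Ermn was the odd one out, with correlations down to −0.10 with Cldn11 in Control and −0.11 with Mal in TBI. Cells of 1 library share its preparation and the levels were scaled to the same total, so these values are descriptions only. Counting error in single cells lowers such correlations and was not taken out.

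The extremes of Mal among the clusters of over 15 cells with under 10% doublets and a median of under 20% mitochondrial UMIs were clusters 17 and 0. In cluster 17, in which Lpar1 and Tspan2 were among the leading genes (230 cells), Mal reached 14010 CPM in Control and 14202 in TBI, Cldn11 4429 and 4042, and Cnp 6869 and 6626. In cluster 0, with Apod, Hapln2 and Anln among the leading genes (436 cells), Mal was at 6387 and 6469 CPM and Cldn11 at 2436 and 2249. Ermn was at 1961 and 1984 CPM in cluster 17 and 2267 and 2426 in cluster 0, so that it was lower where Mal was higher in this pair. This order did not hold over all clusters, since cluster 14 had both less Mal (6063 CPM over both libraries) than cluster 0 and less Ermn (1938) than cluster 17 (1975), and both were low in clusters 15 and 40. Mbp differed less between clusters 17 and 0, at 4720 and 4502 CPM in cluster 17 and 4530 and 4289 in cluster 0. The clusters were formed from the same cells, without the 9 genes, and no test was made between them.

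Opalin had a ratio below 1 in 5 of the 6 clusters with over 15 cells, in 4 of them with an interval below 1. Its ratio was 0.869 in cluster 0, 0.901 in cluster 11, 0.806 in cluster 18, 0.843 in cluster 17 and 0.948 (0.852 to 1.06) in cluster 14, of which 85.5% of cells were from TBI and 13.7% were called doublets. In cluster 15, where Opalin was low, the ratio was 1.28 (0.895 to 1.83). Split instead by Il33, a cytokine gene of mature oligodendrocytes, the 459 Control and 936 TBI cells with a UMI of Il33 had a ratio of 0.843 (0.820 to 0.867) for Opalin and 0.964 for the sum of the 9 genes. The 112 and 178 cells without one had ratios of 1.05 (0.971 to 1.14) and 1.11, but they were also much shallower (median 3192 and 3156 UMIs).

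One group of oligodendrocytes held Mbp near its usual level and much less of most other members. Cluster 15 (98 Control and 144 TBI cells) had a median of 2104 UMIs, 36.8% of them mitochondrial. Its name was less secure, with a mean standardized marker level of 0.851 against 1.71 or more in the other oligodendrocyte clusters. At resolution 0.8, a cluster of 283 cells that shared the leading genes Sec14l5 and Aatk with it stayed unnamed, nearest to oligodendrocytes. Relative to the other oligodendrocytes of the same library, Mbp in cluster 15 stood at 0.837 in Control and 0.973 in TBI. Mag stood at 0.485 and 0.570, and Mobp at 0.533 and 0.545. The 6 other members were far lower, at 0.204 and 0.204 for Mal, 0.219 and 0.226 for Ermn, 0.225 and 0.249 for Mog, 0.204 and 0.223 for Cldn11, 0.144 and 0.215 for Opalin and 0.117 and 0.169 for Cnp. With mitochondrial UMIs taken out of the total, Mbp stood above the other oligodendrocytes, at 1.39 (1.29 to 1.49) and 1.53 (1.43 to 1.63), and Cnp still at 0.194 and 0.266. In both libraries Mbp thus stood highest, followed by Mobp and Mag. The part of RNA quality in this order was not tested.

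In precursors, the 9 genes together were lower in TBI, at 9141 CPM in Control and 2613 in TBI, a ratio of 0.286 (0.264 to 0.309). These sums came from 28 and 56 cells with 2011 and 955 UMIs of the 9 genes, and the 3 highest cells on the committed side described next held 60.7% and 48.3% of that side's UMIs. The precursors were therefore divided by lists without the members, into an OPC side (nearer Pdgfra, Cspg4 and Vcan) and a committed side (nearer Gpr17, Bmp4 and Enpp6). The OPC side held 15 Control and 39 TBI cells, the committed side 13 and 17, and 3 cells lay within 0.1 of the dividing line of this range. Of the precursors, 46.4% in Control and 30.4% in TBI were on the committed side.

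On the OPC side, hardly any myelin RNA was counted in either condition. The 15 Control cells held 36 UMIs of the 9 genes (363 CPM) and the 39 TBI cells 65 (289 CPM), a ratio of 0.795 (0.521 to 1.23) whose interval includes 1. Cnp stood nearest to its mature level, at 4.8% (3.11 to 7.09) of the oligodendrocyte level in Control and 3.12% (2.19 to 4.32) in TBI. Mbp followed at 2.04% (0.933 to 3.87) and 1.5% (0.818 to 2.51), from 9 UMIs in the 15 Control cells and 14 in the 39 TBI cells. Neuron-like cells, without the cells of many UMIs described below, held 0.368 and 0.318 UMIs of Mbp per cell. In CPM, they stood at 36.6 and 41.6, against 90.7 and 62.2 on the OPC side. Whether Mbp on this side exceeded the level of types without myelin was not tested. The 7 other members stood at 0.758% or less. In Control, Mag, Mog, Cldn11, Opalin, Mal and Ermn had 0 UMIs, which allows up to 2.10% of the oligodendrocyte level for Opalin and less for the others. Neuron-like cells, which should lack Cnp, held 36.8 and 36.9 CPM of it, against 252 and 160 in these precursors. In Control, however, 1 cell held 14 of the 25 UMIs of Cnp on the OPC side. The highest cell of this side held 41.7% of its UMIs of the 9 genes in Control and 13.8% in TBI.

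On the committed side, the members stood at widely different points of the way to the mature level. Mbp in Control was above it, at 7682 CPM or 173% (162 to 184) of the oligodendrocytes of that library. In TBI it was at 2082 CPM or 50.1% (44.5 to 56.2). Cnp was near or below it, at 92.9% (85.5 to 101) and 67.7% (61.8 to 74.0). Cldn11 was at 78.8% and 14.6%, and Mag at 44.9% and 8.10%. Mog reached 13.3% (9.12 to 18.8) and 7.79% (4.94 to 11.7), so that its intervals overlapped.

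The 4 last members were nearly absent from committed cells. Mobp was at 4.05% in Control and 0.848% in TBI, and Opalin at 2.81% and 0.467%. Mal, the most counted member in mature cells, had 1 UMI in each library, or 0.0999% and 0.0838% of the oligodendrocyte level. Ermn had 0 UMIs in Control, which allows up to 1.49%, and 1 in TBI (0.342%). Mobp thus stood far behind Mbp, the other basic protein of compact myelin, and Mal far behind Cnp, in both libraries.

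**Figure D3:**
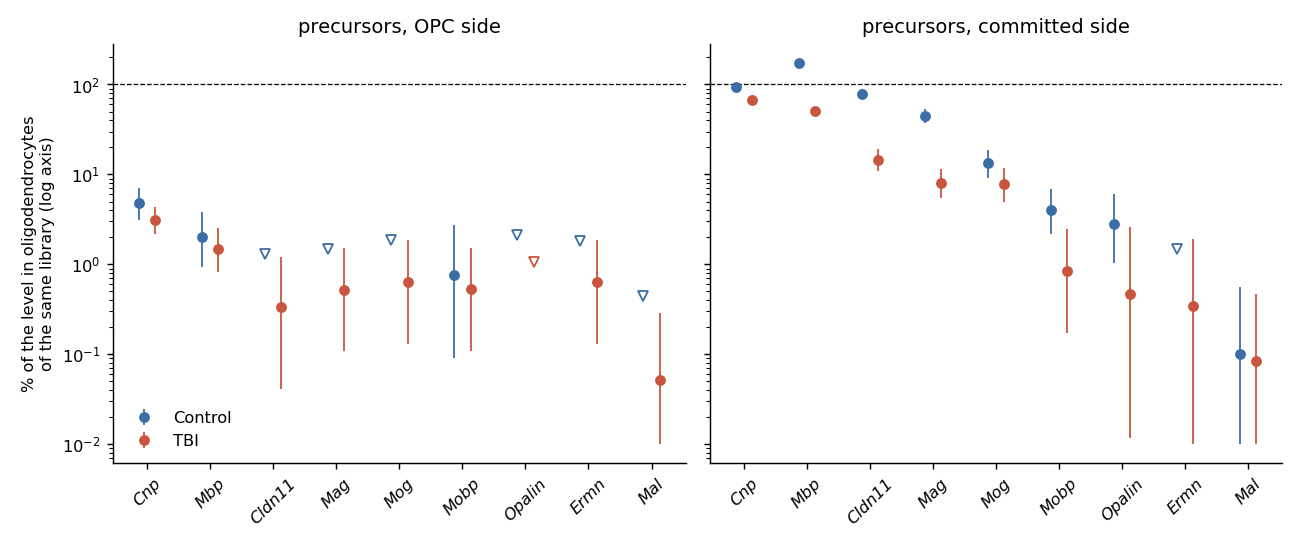
Level of each of the 9 genes in precursors as a percent of its level in oligodendrocytes of the same library (log axis), on the OPC side and the committed side, for Control and TBI. Bars are exact intervals for counting error, cut at the bottom of the axis, and open triangles mark 0 UMIs, drawn at the upper limit. On the committed side the order runs from Mbp and Cnp (173% and 92.9% in Control) down to Mal (0.0999%).

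Committed cells differed between the conditions in more than these genes, and single cells weighed heavily. The 13 Control cells held 6 to 635 UMIs of the 9 genes (median 108) and the 17 TBI cells 1 to 194 (median 37), so that the ranges overlapped. The single highest cell held 32.2% of the Control sum and 21.8% of the TBI sum. The committed side stood at 16349 CPM in Control and 6346 in TBI (ratio 0.388, 0.358 to 0.420), and at 13929 and 5740 without the highest cell of each. The ratio of this side was 0.559 with cells thinned to 2000 UMIs and 0.291 without the 3 highest cells of each library. For Cnp the ratio was 0.711 (0.629 to 0.803), but 0.981 (0.769 to 1.26) after thinning.

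Other genes of maturation differed alongside the members on this side. Enpp6, a phosphodiesterase of newly formed oligodendrocytes, was at 2318 CPM in Control and 1048 in TBI, and the transcription factor Tcf7l2 at 844 and 264, while Gpr17, which marks the earlier committed stage, was at 1631 and 2923. Enpp6, Tcf7l2 and Gpr17 were among the genes that set the division. A lower level per cell at the same stage and a larger part of cells at an earlier stage cannot be told apart with 13 and 17 cells of 1 library each.

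In the 7 types that do not make myelin, about 1 UMI of these genes was counted per cell. The mean was 1.56 in Control (2285 cells, median depth 6326 UMIs) and 1.36 in TBI (3664 cells, 4576 UMIs), a ratio of 0.869 (0.832 to 0.907). These sums include Mal, which stood high in endothelial cells, as given below. Only 10 of these cells (3 in Control, 7 in TBI) held 20 or more UMIs of the 9 genes, up to 333 and 322 in a cell, and 2 and 3 of them were called doublets. They held 836 of the 3575 Control UMIs and 935 of the 4980 TBI UMIs. Without them, the means were 1.2 and 1.11 (ratio 0.922, 0.878 to 0.968), while the levels in CPM were higher in TBI, at 161 and 200. With all cells kept, the medians gave a ratio of 1.00, a coarse measure because the counts per cell are small whole numbers.

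Such cells set the direction in several types. In NSC the ratio was 2.07 with all cells and 0.951 (0.797 to 1.14) without 1 TBI cell of 322 UMIs. In RG-like cells it was 2.30 and then 0.953 (0.765 to 1.19) without 1 TBI cell of 248 UMIs. In mural cells it was 0.402 and then above 1 (interval 1.03 to 1.53) without 1 Control cell of 282 UMIs. Both TBI cells, of the NSC and the RG-like class, were called doublets. The levels in CPM of whole types and the shares of cells that follow include the 10 cells. The levels of single clusters, the counts set against expected numbers and the 7-gene values leave them out.

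Mal was the exception among the types without myelin, with a high level in endothelial cells. It stood at 503 CPM (465 to 542) in Control and 504 (474 to 535) in TBI, a ratio of 1.00 (0.909 to 1.10) that ranged from 0.947 to 1.01 over the other settings. With cells thinned to 2000 UMIs, 53.4% (47.0 to 59.7) and 56.8% (52.5 to 61) of endothelial cells held a UMI of Mal. In the 6 other types, this share was at most 4.93%, and it was 0% of 26 cells in Control microglia, which allows up to 13.2%. All 3 endothelial clusters held it, at 452 CPM in cluster 5, 488 in cluster 8 and 605 (555 to 658) in cluster 19. The arterial genes Gkn3 and Sema3g were among the leading genes of cluster 19.

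The other members did not follow Mal into endothelial cells. If Mal stood to the 7 members other than Mal and Cnp as it does in the oligodendrocytes of its library, 47.7 UMIs of it would be found in Control endothelial cells and 107 in TBI. Without the 10 cells of many UMIs, the counts were 672 and 1085, which is 14.1 (13.1 to 15.2) and 10.1 (9.55 to 10.8) times as many. In the 6 other types, Mal was below the expected number, at 0.561 and 0.442 of it in astrocyte-like cells and 0.347 and 0.587 in NSC, for example. No annotated gene overlaps Mal.

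Cnp stood out in the same way in astrocyte-like cells. It was at 155 CPM (140 to 171) in Control and 184 (164 to 207) in TBI (ratio 1.19, 1.02 to 1.39, with 1.16 to 1.36 over the other settings). The interval included 1 at 2 median absolute deviations (0.984 to 1.36) and without cells over 10% mitochondrial (0.999 to 1.45). Astrocyte-like cells were shallower in TBI (median 2286 against 3413 UMIs). Per cell, without the 10 cells, Cnp was lower in TBI (0.440 against 0.545 UMIs). The 7 members other than Mal and Cnp were nearly equal per cell (0.320 against 0.328, ratio 0.976, 0.805 to 1.18). In CPM, the same cells were higher in TBI for both, from 155 to 185 for Cnp and from 93.3 to 135 for the 7 members. Thinned to 2000 UMIs, 21.4% and 26.3% of these cells held a UMI of Cnp, against 4.88% and 6.08% of neuron-like cells and 8.37% and 6.99% of endothelial cells. The counts were 5.78 (5.20 to 6.39) and 4.71 (4.19 to 5.28) times those expected from oligodendrocytes. RG-like cells (3.12 and 1.95 times) and microglia (2.15 and 2.65 times, at 68.7 and 75.7 CPM) also exceeded the expected number, as did NSC (1.72 and 1.38 times). Values above 1 were also found in neuron-like (1.18 and 1.17), mural (1.38 and 1.33) and endothelial cells (1.59 and 1.17). The value for Cnp was thus above 1 in every type and highest in astrocyte-like cells. The interval included 1 in Control mural cells (0.964 to 1.92) and TBI endothelial cells (0.917 to 1.46). In neuron-like, NSC and mural cells, Mbp exceeded its expected number by more than Cnp did, at 2.14 and 2.08 in neuron-like cells, for example. The level differed between astrocyte-like clusters, from 72.8 CPM in cluster 12, with Nwd1 and Grin2c among its leading genes, to 267 in cluster 9, led by Ttr and Chchd10. Cluster 9 was also the shallowest of them (median 1603 UMIs), and 37.0% of its cells held a UMI of Cnp. In cluster 22 (median 6131 UMIs), at 166 CPM, 55.2% of cells did. Since Cnp overlaps Dnajc7 on the opposite strand, whether the counts of both genes were kept apart depends on the use of strand in counting.

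**Figure D4:**
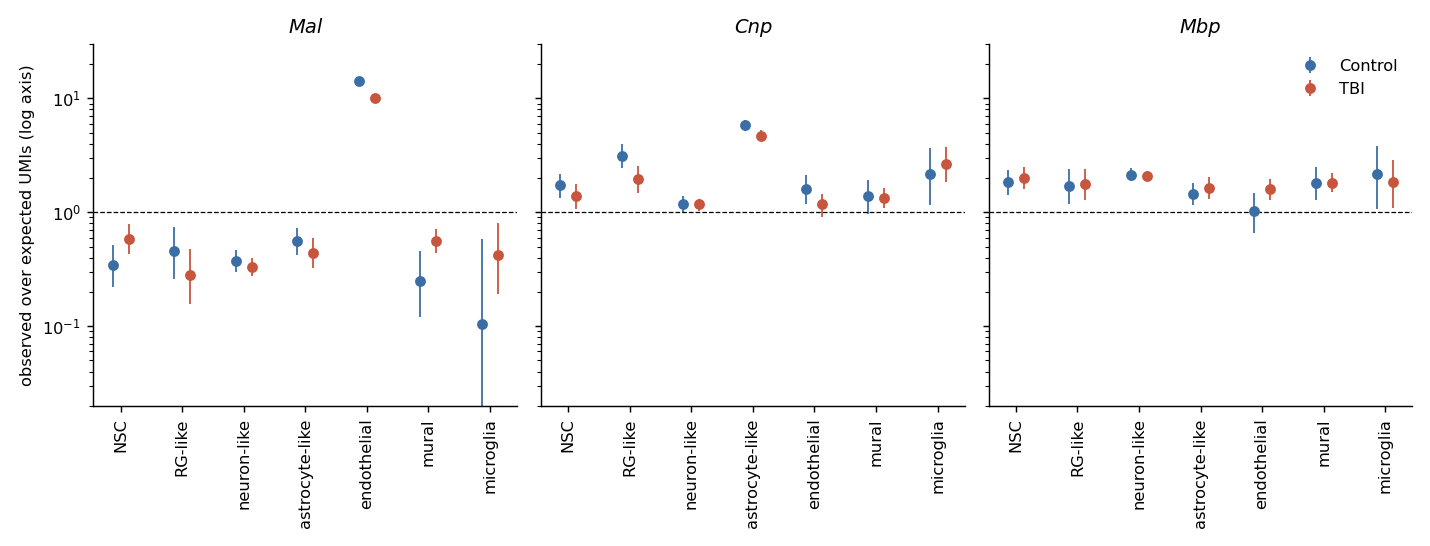
UMIs of Mal, Cnp and Mbp in each cell type without myelin, in Control and TBI, divided by the number expected if the type's myelin RNA had the makeup of oligodendrocytes of the same library (log axis). The dashed line marks 1, bars are exact Poisson intervals, and the 10 cells with 20 or more UMIs of the 9 genes are left out. Mal in endothelial cells (14.1 and 10.1) and Cnp in astrocyte-like cells (5.78 and 4.71) lie highest.

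The 7 other members (Mbp, Mobp, Mag, Mog, Cldn11, Opalin and Ermn) were found at less than 1 UMI per cell in every type. They gave 0.490 UMIs per cell in Control and 0.483 in TBI, a ratio of 0.986 (0.914 to 1.06). In Control, the mean ran from 0.314 in mural cells (median depth 3945 UMIs) and 0.328 in astrocyte-like cells (3413) to 0.679 in NSC (17201) and 0.706 in neuron-like cells (10872). In TBI it ran from 0.320 in astrocyte-like cells to 0.647 in neuron-like cells. Free RNA in the droplets can give a low number of this kind in every type. The 7-gene counts are called background below, but whether they were free RNA or expression was not tested.

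The makeup of this background was not that of the oligodendrocytes. Mbp made up 24.4% of the 7-gene UMIs in Control oligodendrocytes and 23.6% in TBI oligodendrocytes, but 43.9% (41.0 to 46.9) and 44.8% (42.5 to 47.2) in the types without myelin. Its counts were 1.80 (1.65 to 1.97) and 1.90 (1.77 to 2.04) times those expected from the 7-gene makeup of oligodendrocytes. Ermn was the lowest, at 0.511 (0.393 to 0.652) and 0.530 (0.436 to 0.638). Mobp stood at 0.890 and 0.892, Mag at 0.885 and 0.772, Mog at 0.773 and 0.705, Opalin at 0.693 and 0.671 and Cldn11 at 0.651 and 0.707.

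Between types, the share of Mbp in the 7-gene UMIs was not uniform. In neuron-like cells it was 52.1% (47.4 to 56.7) in Control and 49.2% (45.6 to 52.8) in TBI, and in NSC 45.2% and 47.5%. Mural cells had 44.3% and 43.1%, and RG-like cells 41.6% and 42.2%. It was lower in astrocyte-like cells, at 35.3% (29.0 to 41.9) and 38.6% (32.1 to 45.5), and in endothelial cells, at 24.8% (16.9 to 34.1) and 37.6% (31.2 to 44.3). Microglia (52.4% and 43.2%) had too few UMIs to be placed. Among neuron-like clusters, Mbp was highest in cluster 7, at 60.8 CPM (51.4 to 71.3), and lowest in cluster 6, led by Tac2 and Pcp4, at 30.2 (24.5 to 36.8). Sema5a and Camk2b were among the leading genes of cluster 7. The part of golli transcripts in the neuronal values was not tested.

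The oligodendrocytes of high mitochondrial share had a share of Mbp among the 7 genes closer to that of the background. Cnp, which is not among the 7, went the other way. It stood at 0.117 and 0.169 of the other oligodendrocytes in cluster 15. In neuron-like cells it was at 1.18 and 1.17 times the number expected from oligodendrocytes. In cluster 15, Mbp was 45.6% of the 7-gene UMIs in Control (43.3 to 48.0) and 45.6% in TBI (43.5 to 47.8). The barcodes removed by the filter, which hold few or unusual numbers of UMIs, gave 23 UMIs of Mbp among 48, or 47.9% (33.3 to 62.8). Committed precursors were higher still, at 67.0% and 72.5%, as the other members were low there. Whether the background came from any of these cells was not tested.

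**Figure D5:**
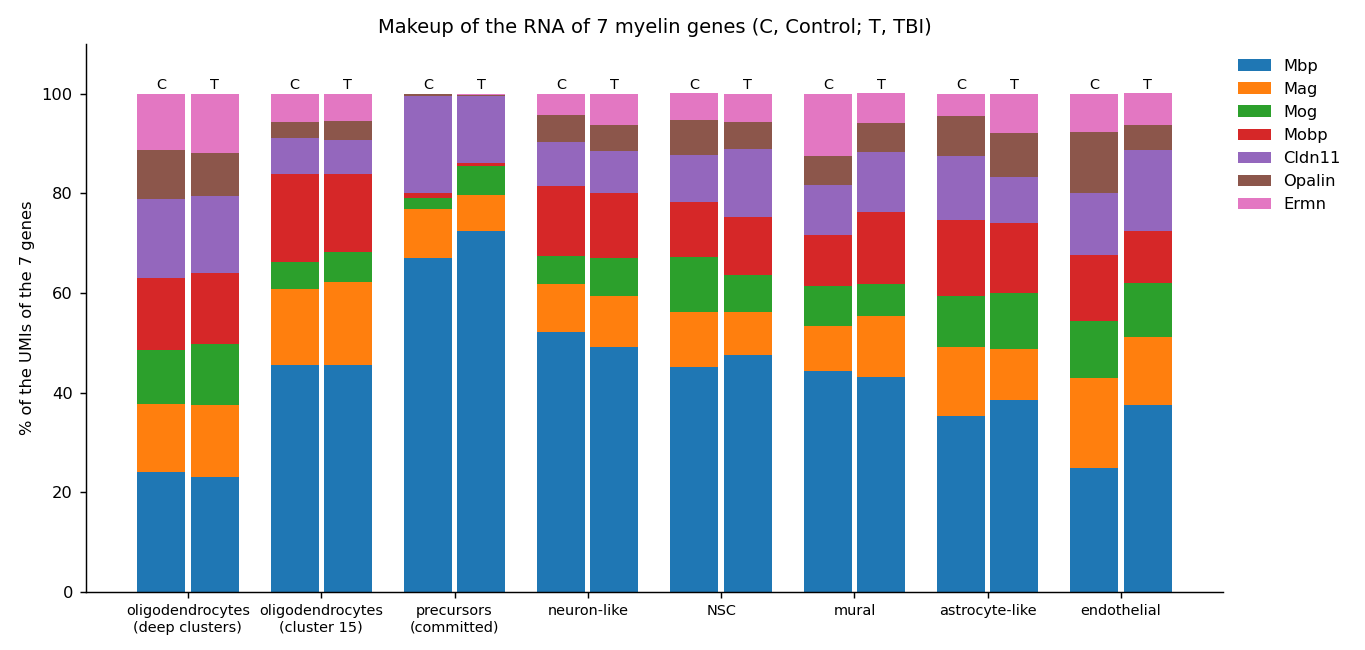
Share of each of 7 members (without Mal and Cnp) in their summed UMIs, in percent, stacked for the Control (C) and TBI (T) cells of the oligodendrocytes without the doubted clusters and doublets (deep clusters), of cluster 15, of committed precursors and of 5 types without myelin, the latter without cells of 20 or more UMIs of the 9 genes. Mbp, at the bottom of each bar, takes 24.0% and 23.0% in the deep clusters, 45.6% in both libraries in cluster 15 and 52.1% and 49.2% in neuron-like cells.

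Across the 18 class and library pairs with 20 or more cells, the genes whose levels followed the mean of the 9 members most closely were Spock3 (Pearson 0.9775), Gpr62 (0.9654), Tmem125 (0.9608) and Tspan2 (0.9596). The next 6 were A330049N07Rik, A230009B12Rik, Spock1, Tmem88b, Nkx6-2 and Kif13b, the last at 0.9441. Of the members, Mog followed that mean best (0.987) and Mal least (0.755), with Ermn at 0.852 and Cnp at 0.888. The 18 pairs come from 2 libraries, and the members are part of the mean, so these values describe likeness over cell types only.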

How the data were processed

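The authors deposited 1 table of raw UMI counts per gene and barcode for each condition, made with Cell Ranger 3.0.2 against GRCm38 (mm10) per the submitters' processing notes, from GFP+ DG cells of pooled animals. Accompanying tables of barcodes and genes hold no measurement. Each table was assigned to its condition by barcodes that the study lists for it. Depth per cell is given with the results, and every interval covers counting error only.

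Barcodes with under 200 genes, or with UMI counts over 3 median absolute deviations from the median of the library (log scale), were removed (37 Control, 45 TBI). Clusters followed the study's settings (Seurat 5.3.0 in R 4.3.3, CCA on 20 dimensions, 20 principal components, resolution 3, Malat1 left out), with the 9 genes removed from the 2000 variable genes, which left 1991. Clusters were named by fixed markers, and 4 (117, 113, 96 and 41 cells) stayed unnamed. Scrublet (scanpy 1.11.5, an expected doublet rate set by the number of cells) called 37 Control and 108 TBI cells, which were kept in the main values. Levels are summed UMIs per 1000000, with Malat1 outside the total. Intervals are exact Poisson, Clopper-Pearson or ratio-of-Poisson intervals (Python 3.11.15, scipy 1.17.1, numpy 2.4.6), and their scripts were tested on simulated data. Thinning drew 2000 UMIs per cell and left out shallower cells. With 1 library per condition no test was run, and 1.5-fold, in genes with 100 or more UMIs, is a limit of size only.

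The 9 genes and the lists were chosen with earlier results of these data known. All 9 are described, of each myelin list the lowest and highest ratio are named, and the genes most alike are the 10 with the highest correlation. Clusters singled out for their values were chosen after those were seen. So were the settings that leave out doubted clusters, the highest precursors or cells with 20 or more UMIs of the 9 genes, and the share of Mbp without Mal and Cnp. The other alternatives changed the clustering, doublets, filters, scaling, weight of cells, depth, fold and count minimum.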

Additional observations from a re-analysis of the deposited data

Results flagged for a closer look

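The barcodes removed by the filter also held myelin RNA, with 19 UMIs of the 9 genes in 37 Control barcodes and 43 in 45 TBI barcodes. A cluster that stayed unnamed but lay nearest to oligodendrocytes (24 Control and 17 TBI cells) held 2573 CPM of the 9 genes in Control and 4402 in TBI. Its median share of mitochondrial UMIs was 68.6%, and neither set of barcodes entered a comparison between the conditions. Mog was lower in TBI than in Control in precursors (ratio 0.489) and higher in oligodendrocytes (ratio 1.06), with 1 library on each side. The precursor ratio rests on 32 and 26 UMIs and on unequal parts of committed cells (46.4% and 30.4%), and on the committed side alone it was 0.619 (0.346 to 1.09). The difference between the 2 ratios was not tested.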

How the results depend on the processing

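For the 5 main results, 38 of the alternative values kept direction and size, 14 moved beyond the counting interval and 5 turned direction. Some of the 38 could not have differed and say nothing about stability. These are the count of members past the fold at other count minimums or at 2-fold, and the precursor sum without doublets. All 9 genes exceeded every minimum, no member had passed 1.5-fold, and no precursor was called a doublet. The sum of the 9 genes in oligodendrocytes (0.982) was 0.995 without doublets, 0.995 at 2 median absolute deviations, 0.958 without cells over 10% mitochondrial, and turned to 1.02 as a mean over cells, 1.05 when thinned and 1.00 without the doubted clusters. In precursors (0.286) it was 0.257 relative to the median ratio of all genes, 0.332 as a mean over cells, 0.434 thinned and 0.312 without the highest cell. UMIs per cell in types without myelin (0.869) gave 0.826 with the members among the variable genes, 0.777 at resolution 0.8, 0.818 without cells over 10% mitochondrial, 1.00 as a median and 0.922 without cells of 20 or more UMIs, and turned to 1.21 as a mean of levels over cells and 1.23 thinned, both of which are levels per total and not numbers per cell. The share of Mbp there (18.2%) was 20.0% as a mean over cells and 16.6% thinned. Of the single genes, Mal turned to 0.993 in oligodendrocytes without cells over 10% mitochondrial, and Cnp to 1.02 as a mean over cells and 1.06 thinned. The cause was not tested. The count of members past 1.5-fold was 0 in every setting run. At 2-fold, 0.461% of 8668 genes passed. With 20 or more UMIs 9.23% of 11305 genes passed 1.5-fold, with 500 or more 0.390% of 4359. Scalings of the total do not apply to UMIs per cell or to the share of Mbp. No paired analysis was possible because the mice of each condition entered 1 common sort, and with 1 library per condition none could be left out. Precision was low in precursors, where the OPC side held 36 and 65 UMIs of the 9 genes, and in microglia, with 35 in Control and 87 in TBI.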
